A study of Mus musculus with 12 samples.

Results

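Collagen chains are the protein strands that wind together into the triple-helical molecules of the extracellular matrix. The genes taken here were those whose symbol has the form of a collagen alpha chain, "Col", a type number, "a" and a chain number, and 44 of the 48709 gene identifiers counted had such a symbol. They fell into 11 fibrillar genes, 6 basement membrane genes (the chains of type IV) and 27 others. The others were 9 fibril-associated chains (FACIT), 6 beaded filament chains (type VI), 4 transmembrane chains, 3 network or short chain genes (types VIII and X), 2 multiplexins and 3 chains outside these classes.

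RNA was measured in cells of embryonic day 18 hypothalamus of C57BL/6 mice. The dissociated cells received a virus at a multiplicity of infection of 10 and were grown as floating neurospheres, with 10 ng/ml of basic fibroblast growth factor added 24 h later, and after 1 week they were dissociated again and sorted by fluorescence. There were 4 groups of 3 libraries. For HCRT (hypocretin) cells the reporter was mCherry in an adeno-associated virus, which gave the mCherry-positive group and its mCherry-negative counterpart. For MCH (melanin-concentrating hormone) cells it was EGFP in a lentivirus, which gave the EGFP-positive group and its EGFP-negative counterpart. All 4 groups came from cultures that had received virus and growth factor, the negative ones included. The labels name neither the promoter that drives each reporter nor how many animals or cultures a replicate pooled. They do not say that replicates are separate cultures, so the p-values cover the spread among these libraries alone, and that spread may be technical.

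As background, fibrillar chains of types I, III and V build the tension-bearing fibres of connective tissue and are made in the brain mainly by fibroblasts of the meninges and around vessels. Type IV chains form the sheet of the basement membrane under vessels and at the surface of the brain, where astrocytes, pericytes and endothelial cells all contribute. FACIT chains such as those of type IX sit on the surface of fibrils, type VI forms beaded filaments, and multiplexins such as type XVIII join basement membranes to the matrix around them. Collagen chains are hydroxylated and folded in the endoplasmic reticulum, trimmed outside the cell, crosslinked by lysyl oxidases and read by receptors such as integrins and discoidin domain receptors.

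The libraries held 16.3 to 32.9 M reads (megareads) in genes, of which 12751 to 37094 reads per library lay in the collagen genes, and 35 to 43 of the 44 genes had at least 1 read in a library. The label of the EGFP sort could be checked on Pmch, the gene of the MCH precursor, which had 16.3, 17.8 and 17.4 reads per megaread in genes (CPM) in EGFP-positive libraries and 4.01, 5.12 and 4.91 CPM in EGFP-negative libraries. Hcrt had between 3 and 14 reads in each mCherry-positive library and between 1 and 5 in each mCherry-negative one, so this gene gave no usable check of the mCherry sort. Pmch and Hcrt together had 0.29 to 0.85 CPM in mCherry-positive and 0.23 to 0.34 CPM in mCherry-negative libraries. Pmch was thus also higher in EGFP-negative libraries than in any mCherry library, and differed between the sorts as well as within 1. Astrocyte markers had the highest mean summed level of the marker lists in each group, at 9001 to 11858 CPM in mCherry-positive, 4709 to 8093 CPM in mCherry-negative, 15045 to 17766 CPM in EGFP-positive and 8352 to 8506 CPM in EGFP-negative libraries, while 7 neuronal markers together had 743 to 1848 CPM over the 12 libraries. In mCherry-negative replicate 3 oligodendrocyte lineage markers were higher than astrocyte markers, at 5732 against 4709 CPM. One library stood apart in the collagen genes: mCherry-positive replicate 2 had 1 read of Col3a1 and 9 of Col1a1, against at least 1112 and 554 reads in every other mCherry library.

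To show what lies at the start of some collagen genes, 300 bases are printed for each of 6, 250 before and 50 after the RefSeq transcription start (GRCm38.p6). They are a pair of fibrillar genes that were lower in EGFP-positive cells, and the type IV pairs Col4a1 with Col4a2 and Col4a5 with Col4a6. The type IV pairs stand head to head, as Col4a3 and Col4a4 also do. No window was available for Col1a1, Col2a1 or Col5a2. The capitals mark matches to 3 short motifs: the CCAAT box, which reads ATTGG from the other strand, the TATA motif in the form TATAAA, and the GC box in the form GGGCGG, which reads CCGCCC from the other strand. Within a window no marked match overlaps another. Each sequence runs 5′ to 3′ on the strand of its gene.
Col1a2, chr6:4505368-4505667, plus strand, is the alpha 2 chain of type I collagen, and its window begins inside the annotated gene.
Col1a2: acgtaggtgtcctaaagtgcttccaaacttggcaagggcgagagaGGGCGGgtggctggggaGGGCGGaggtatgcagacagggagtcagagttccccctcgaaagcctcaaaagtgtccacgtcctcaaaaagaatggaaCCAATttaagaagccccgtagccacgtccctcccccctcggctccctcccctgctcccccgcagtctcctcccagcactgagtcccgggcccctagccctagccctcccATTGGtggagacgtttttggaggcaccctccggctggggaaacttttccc
Col3a1, chr1:45311288-45311587, plus strand, is the chain of type III collagen.
Col3a1: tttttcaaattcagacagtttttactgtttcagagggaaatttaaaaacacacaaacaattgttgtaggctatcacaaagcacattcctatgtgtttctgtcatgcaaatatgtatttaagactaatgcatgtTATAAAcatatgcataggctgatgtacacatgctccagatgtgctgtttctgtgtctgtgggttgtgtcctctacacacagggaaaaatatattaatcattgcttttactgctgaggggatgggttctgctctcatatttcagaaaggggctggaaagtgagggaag
Col4a1, chr8:11312777-11313076, minus strand, and Col4a2, chr8:11312555-11312854, plus strand, are the widespread chains of type IV.
Col4a1: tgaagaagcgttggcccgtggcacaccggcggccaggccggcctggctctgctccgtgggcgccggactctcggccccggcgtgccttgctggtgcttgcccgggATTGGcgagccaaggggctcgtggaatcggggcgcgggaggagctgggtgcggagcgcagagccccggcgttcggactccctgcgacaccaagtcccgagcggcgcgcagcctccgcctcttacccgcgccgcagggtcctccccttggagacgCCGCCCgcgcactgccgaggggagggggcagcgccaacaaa
Col4a2: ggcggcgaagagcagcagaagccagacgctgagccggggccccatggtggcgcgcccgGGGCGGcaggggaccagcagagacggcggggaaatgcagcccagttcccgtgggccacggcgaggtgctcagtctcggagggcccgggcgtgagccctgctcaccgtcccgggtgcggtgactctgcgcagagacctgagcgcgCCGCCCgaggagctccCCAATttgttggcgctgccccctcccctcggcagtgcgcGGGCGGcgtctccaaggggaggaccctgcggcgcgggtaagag
Col4a5, chrX:141475169-141475468, plus strand, and Col4a6, chrX:141474027-141474326, minus strand, are the X-linked chains of type IV.
Col4a5: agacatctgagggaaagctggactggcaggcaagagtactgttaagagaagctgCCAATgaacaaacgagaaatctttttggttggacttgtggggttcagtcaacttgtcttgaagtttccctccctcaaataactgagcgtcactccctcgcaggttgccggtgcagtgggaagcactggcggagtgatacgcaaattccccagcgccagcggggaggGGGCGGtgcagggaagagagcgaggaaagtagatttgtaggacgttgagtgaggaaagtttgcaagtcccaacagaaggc
Col4a6: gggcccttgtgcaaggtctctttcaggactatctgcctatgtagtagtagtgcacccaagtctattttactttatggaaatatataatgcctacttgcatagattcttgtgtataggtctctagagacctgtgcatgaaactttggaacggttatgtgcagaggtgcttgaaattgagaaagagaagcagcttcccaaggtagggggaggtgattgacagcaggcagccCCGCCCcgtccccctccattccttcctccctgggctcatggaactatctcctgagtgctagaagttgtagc

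The Col4a1 and Col4a2 windows overlapped by 78 bases, and the annotated genes themselves overlap by 22 bases on opposite strands, while Col4a5 and Col4a6 lie 1308 bases apart and their windows share none. The marked CCGCCC of Col4a1 lies in the shared bases. It is the last marked GGGCGG of Col4a2 read from the other strand, and it was counted for both genes. Col1a2 held CCAAT from 109 bases before its start, and Col3a1 held TATAAA from 117 bases before its start. A window with CCAAT was found for 13 of the 35 collagen genes in the RefSeq table (37.1%), against 37.4% of all 32851 windows. TATAAA was in 5 of 35 (14.3%) against 13.6% of all windows, and GGGCGG in 22 of 35 (62.9%) against 35.7% of all windows. These are counts of letters in a short window and say nothing of binding.

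Per kilobase of its longest coding transcript, Col9a3, a FACIT chain of type IX, had the highest level of the 44 genes in every group, at 49.4 ± 13.1 CPM per kb in mCherry-positive, 41.3 ± 6.77 in mCherry-negative, 63.5 ± 2.38 in EGFP-positive and 53.6 ± 3.73 in EGFP-negative cells (SD, n = 3 each). The other type IX chains were far lower than Col9a3 within every library, with ratios per length of Col9a1 to Col9a3 between 0.0636 and 0.267 and of Col9a2 to Col9a3 between 0.0814 and 0.132. Next in order came Col3a1 in both negative groups, at 20.2 ± 14.1 CPM per kb in mCherry-negative and 28.0 ± 1.40 in EGFP-negative cells. In mCherry-positive cells the second place was held by Col16a1, a FACIT chain, at 13.2 ± 4.94 CPM per kb, followed by Col4a1 at 12.1 ± 4.02, and these did not differ beyond their spread. In EGFP-positive cells Col4a1 had 17.4 ± 5.40 and Col16a1 17.2 ± 2.62 CPM per kb, again within their spread. At the low end, Col6a4, Col6a6, Col10a1 and Col24a1 had at most 2.10 CPM in any library and were not tested in either sort.

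**Figure D1:**
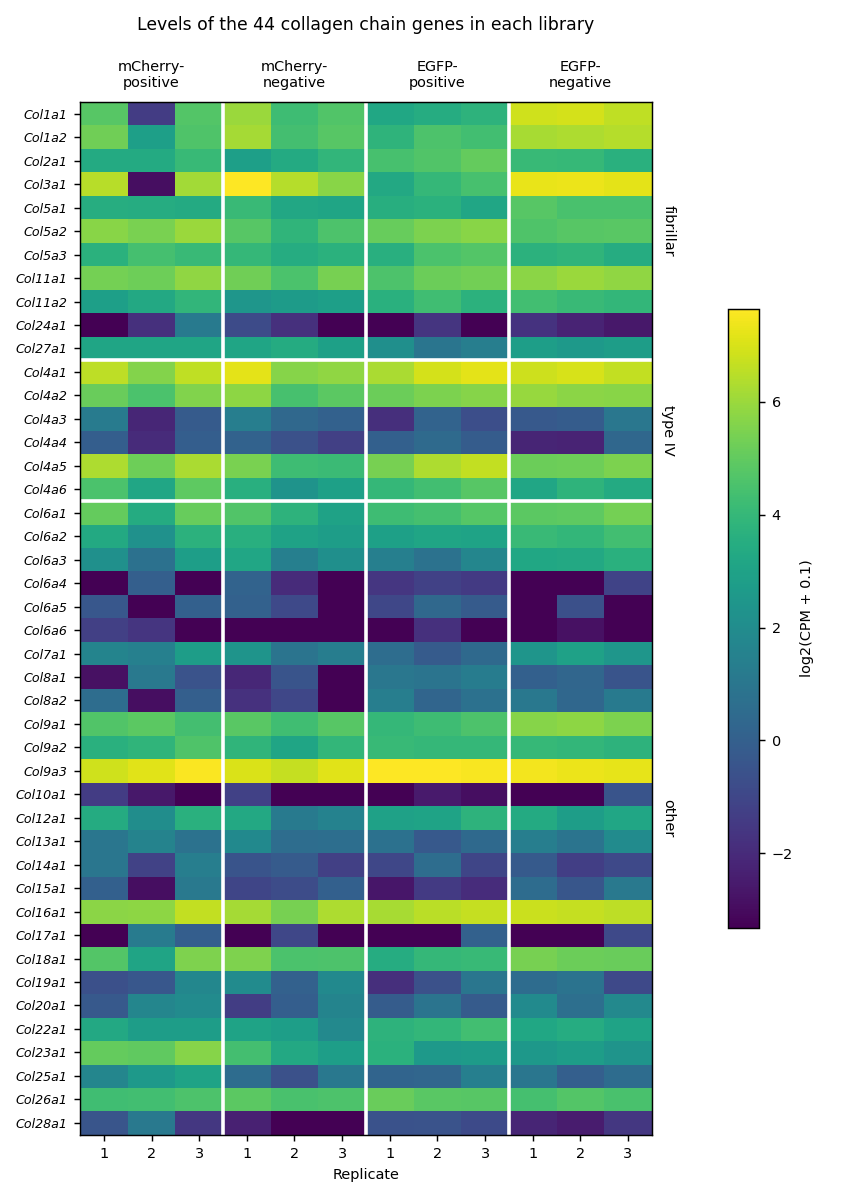
Level of each of the 44 collagen chain genes (rows, grouped as fibrillar, type IV and other) in each of the 12 libraries (columns, 3 replicates per group), as log2 of CPM plus 0.1. Col9a3 is bright throughout, Col1a1 and Col3a1 are dark in mCherry-positive replicate 2, and in the EGFP libraries the top fibrillar rows are darker in the positive than in the negative group.

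The EGFP-positive cells differed from the EGFP-negative cells in 19 of the 39 collagen genes tested: 7 were higher and 12 lower, and 20 were not called (edgeR's quasi-likelihood test on the counts of these 6 libraries, Benjamini-Hochberg adjusted p under 0.05). Over all 16326 genes tested, 16.1% were called, 8.99% higher and 7.07% lower. Scaling by library totals only turned this balance, with 1115 of all genes higher and 1685 lower instead of 1468 and 1154, and left 5 collagen genes higher and 12 lower. By class, the fibrillar genes had 2 higher and 6 lower of 10 tested, the type IV genes 2 higher and none lower of 6, and the others 3 higher and 6 lower of 23. The median log2 fold change was -0.86 for the fibrillar genes, 0.59 for type IV and 0.04 for the others, against -0.01 for all genes tested. Col1a1 averaged 11.2 ± 2.19 CPM in EGFP-positive and 111.7 ± 13.8 CPM in EGFP-negative cells (SD, n = 3 each), while the Col4a1 libraries of both groups overlapped.

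Col1a1 and Col3a1, chains of interstitial fibrils, had the largest falls. Col1a1, the main chain of type I collagen (chr11:94936224-94953042), had 9.22, 10.9 and 13.6 CPM in EGFP-positive libraries, and 115, 123 and 96.4 CPM in EGFP-negative libraries. The groups lay far apart, with a log2 fold change of -3.20 ± 0.19 (SE, adjusted p 3.3e-05). Col3a1 had 9.75, 15.9 and 21.9 CPM in EGFP-positive libraries and 157, 163 and 147 CPM in EGFP-negative libraries, a log2 fold change of -3.17 ± 0.26 (adjusted p 0.00022). Col1a2 fell less, with 13.8, 23.6 and 20.1 CPM in EGFP-positive and 75.2, 79.4 and 86.1 CPM in EGFP-negative libraries (-1.95 ± 0.20, adjusted p 0.00048). In these bulk samples fewer cells of a type and less RNA per cell cannot be told apart.

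Type V collagen, which sits inside type I fibrils and sets their width, split by chain. Col5a1 had 11.6, 12.6 and 8.83 CPM in EGFP-positive and 27.9, 22.8 and 22.8 CPM in EGFP-negative libraries, a fall of 1.05 ± 0.18 on the log2 scale (adjusted p 0.0055). Col5a2, which forms the same molecule with Col5a1, went the other way: 34.5, 44.2 and 51.2 CPM in EGFP-positive and 24.8, 27.8 and 28.7 CPM in EGFP-negative libraries (0.79 ± 0.17, adjusted p 0.015). Every EGFP-positive library lay below every negative one for Col5a1 and above for Col5a2. The third chain, Col5a3, had a log2 fold change of 0.79 ± 0.28 and was not called (adjusted p 0.085), except without EGFP-positive replicate 1 (1.07, adjusted p 0.00040). Col5a2 lies 24614 bases from Col3a1 on chromosome 1, on the opposite strand, and the neighbours were called in opposite directions.

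The chains known best from cartilage also split. Col2a1, the chain of type II collagen, had 21.9, 25.0 and 33.2 CPM in EGFP-positive and 16.9, 16.2 and 12.3 CPM in EGFP-negative libraries and rose by 0.93 ± 0.21 on the log2 scale (adjusted p 0.016). Col11a1, a minor chain of the same fibrils, had 23.9, 36.3 and 39.7 CPM in EGFP-positive and 53.4, 63.8 and 56.2 CPM in EGFP-negative libraries and fell by 0.68 ± 0.20 (adjusted p 0.045). Its partner Col11a2 was not called (-0.11 ± 0.21). Col27a1, a late-described fibrillar chain, averaged 2.88 ± 1.27 CPM in EGFP-positive and 6.56 ± 0.49 CPM in EGFP-negative cells (SD, n = 3 each) and fell by 1.11 ± 0.31 (adjusted p 0.037).

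Of the type IV chains, the X-linked pair rose and the autosomal pair was not called. Col4a5 had 42.2, 79.5 and 100.3 CPM in EGFP-positive and 36.0, 37.8 and 44.9 CPM in EGFP-negative libraries (1.02 ± 0.28, adjusted p 0.034), with the lowest positive library inside the range of the negative ones. Col4a6 had 15.8, 19.9 and 27.5 CPM in EGFP-positive and 8.96, 14.1 and 10.4 CPM in EGFP-negative libraries, with no overlap (1.03 ± 0.25, adjusted p 0.023). Col4a1, the most abundant type IV chain, had 76.8, 121 and 147 CPM in EGFP-positive and 113, 125 and 98.6 CPM in EGFP-negative libraries, which overlapped (0.15 ± 0.22, adjusted p 0.69). Without EGFP-positive replicate 1, the lowest of its group, Col4a1 was called higher (0.39, adjusted p 0.030), and without replicate 3 its log2 fold change was -0.07. Col4a2 had a log2 fold change of -0.23 ± 0.16 (adjusted p 0.37), and Col4a3 and Col4a4, chains of the kidney filter and inner ear, stayed at or under 2.5 CPM in every library and were not called.

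Among the other classes, 2 beaded filament chains were lower, Col6a2 and Col6a3. Col6a3, the longest chain of type VI, had 2.58, 1.67 and 3.20 CPM in EGFP-positive and 9.12, 9.65 and 12.3 CPM in EGFP-negative libraries (-1.94 ± 0.27, adjusted p 0.0021). Col6a2 averaged 8.09 ± 0.588 CPM in EGFP-positive and 17.5 ± 2.34 CPM in EGFP-negative cells (-0.99 ± 0.17, adjusted p 0.0055). Col6a1, its neighbour on chromosome 10, had a log2 fold change of -0.46 ± 0.19 and was not called (adjusted p 0.14), although all 3 positive libraries lay below the negative ones, and it was called without EGFP-positive replicate 3 (-0.63, adjusted p 0.043). The multiplexins fell as well. Col18a1, whose end fragment is known as endostatin, had 11.0, 15.7 and 16.8 CPM in EGFP-positive and 41.6, 36.7 and 35.3 CPM in EGFP-negative libraries (-1.27 ± 0.19, adjusted p 0.0028). Col15a1 was scarce, at 0.16 ± 0.101 CPM in EGFP-positive and 1.37 ± 0.714 CPM in EGFP-negative cells (-2.85 ± 0.66, adjusted p 0.018). Col7a1, the anchoring fibril chain, averaged 1.14 ± 0.324 CPM in EGFP-positive and 6.03 ± 1.35 CPM in EGFP-negative cells (-2.31 ± 0.31, adjusted p 0.0018).

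Within the FACIT class the type IX chains parted. Col9a1 had 15.7, 18.9 and 23.7 CPM in EGFP-positive and 50.0, 54.7 and 44.1 CPM in EGFP-negative libraries and fell by 1.24 ± 0.18 on the log2 scale (adjusted p 0.0028). Col9a3 had 196, 199 and 185 CPM in EGFP-positive and 175, 163 and 152 CPM in EGFP-negative libraries, a small rise of 0.35 ± 0.10 (adjusted p 0.044), and Col9a2 was not called (0.19 ± 0.15). Col9a3 shares 6.07% of its exonic bases with a gene on the opposite strand, and whether the counting used strand is not given in the sources used here. Col22a1, a FACIT chain of tissue junctions, averaged 16.2 ± 3.28 CPM in EGFP-positive and 9.46 ± 1.53 CPM in EGFP-negative cells (0.88 ± 0.21, adjusted p 0.021). Col8a1, a short chain of vessel and corneal matrix, averaged 2.03 ± 0.299 CPM in EGFP-positive and 0.89 ± 0.258 CPM in EGFP-negative cells (1.27 ± 0.38, adjusted p 0.048). Col16a1, Col23a1 and Col26a1, each above 5 CPM in every EGFP library, were not called, with log2 fold changes of -0.08 ± 0.15, 0.59 ± 0.31 and 0.49 ± 0.15. For Col26a1 all positive libraries lay above the negative ones. It was called higher in a fit with 1 library left out (adjusted p 0.047) and in some other setting. The remaining genes tested, Col6a5, Col8a2, Col12a1, Col13a1, Col14a1, Col19a1, Col20a1, Col25a1 and Col28a1, were not called either and ranged between -1.23 for Col20a1 and 2.11 for Col6a5. Col17a1, a chain of skin attachment, was not tested in this sort.

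**Figure D2:**
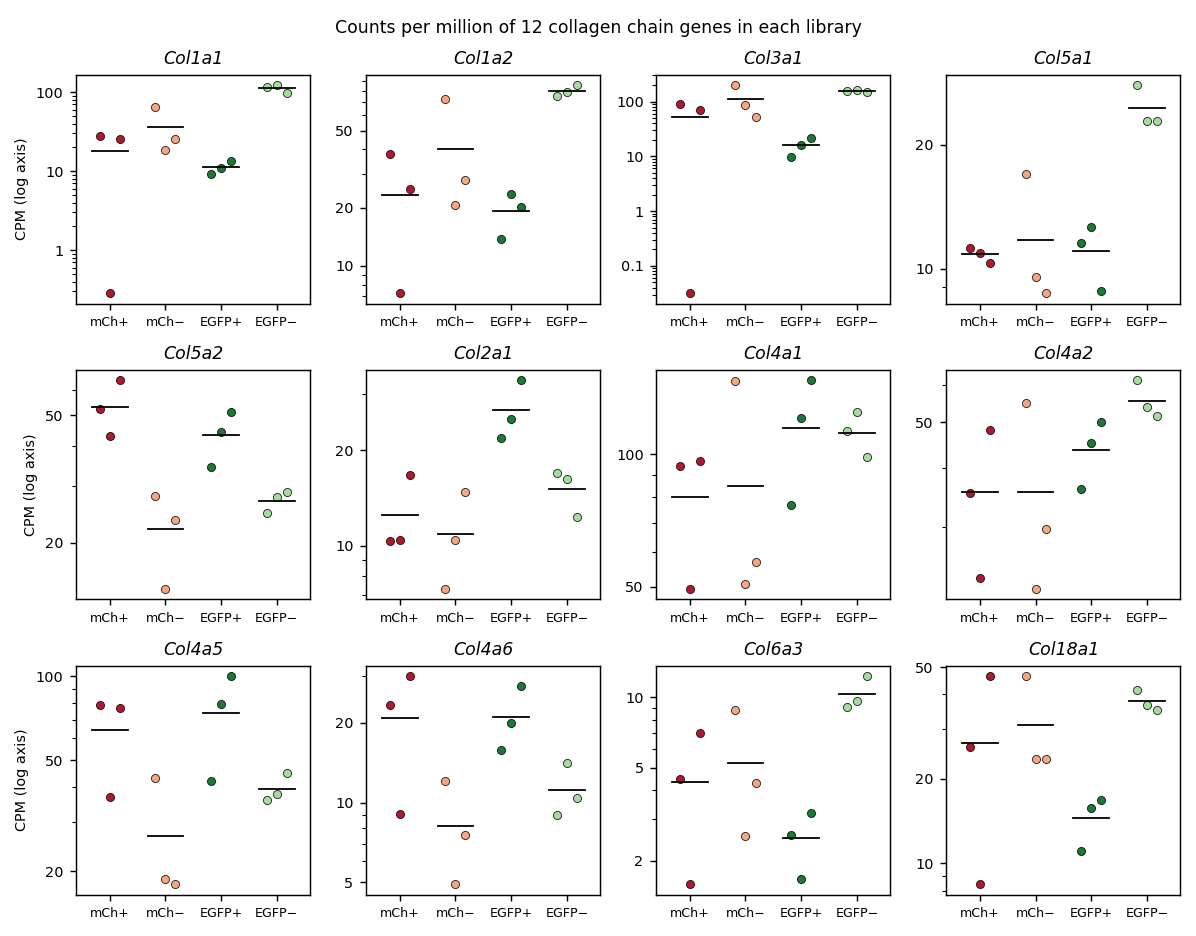
CPM on a log axis of 12 collagen chain genes in each library (dots) with the group mean (bar), for mCherry-positive (mCh+), mCherry-negative (mCh−), EGFP-positive (EGFP+) and EGFP-negative (EGFP−) cells. Col1a1, Col1a2, Col3a1, Col5a1, Col6a3 and Col18a1 lie lower in all 3 EGFP-positive than in all EGFP-negative libraries, while Col5a2, Col2a1 and Col4a6 lie higher, and mCherry-positive replicate 2 sits at 0.0316 CPM for Col3a1.

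The lower calls stood more firmly than the higher ones. When each of the 6 libraries was left out in turn, 9 of the 12 lower calls were made every time (Col1a1, Col1a2, Col3a1, Col5a1, Col6a2, Col6a3, Col7a1, Col9a1 and Col18a1), and none of the 7 higher calls was. The number of collagen genes called higher was 0 without EGFP-positive replicate 2, 1 without EGFP-negative replicate 1, 3 without EGFP-negative replicate 2, 1 without EGFP-negative replicate 3, 5 without EGFP-positive replicate 3 and 10 without EGFP-positive replicate 1. Calls over all genes moved as well. In the same order 661, 744, 644, 722, 1396 and 2884 were higher, against 1468 with no library left out. Lower were 480, 543, 493, 618, 1109 and 2360, against 1154. The log2 fold changes of the higher genes stayed positive in these fits, at 0.74 to 1.32 for Col4a5, 0.79 to 1.25 for Col4a6, 0.65 to 0.95 for Col5a2 and 0.74 to 1.07 for Col2a1, and their largest adjusted p was 0.13, 0.10, 0.077 and 0.077. Among the lower genes, Col11a1 lost its call without EGFP-positive replicate 2 or any 1 EGFP-negative library (largest adjusted p 0.18), Col15a1 without EGFP-positive replicate 2 or EGFP-negative replicate 1 or 3 (0.086), and Col27a1 without any 1 library but EGFP-positive replicate 1 (0.13). Col9a3 was lost without the same libraries as Col11a1 (0.17), and Col8a1 without the same as Col27a1 (0.14). In a fit of all 12 libraries, which shares its spread with the more variable mCherry sort, 0 genes were called higher and 4 lower (Col1a2, Col5a1, Col7a1 and Col9a1).

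**Figure D3:**
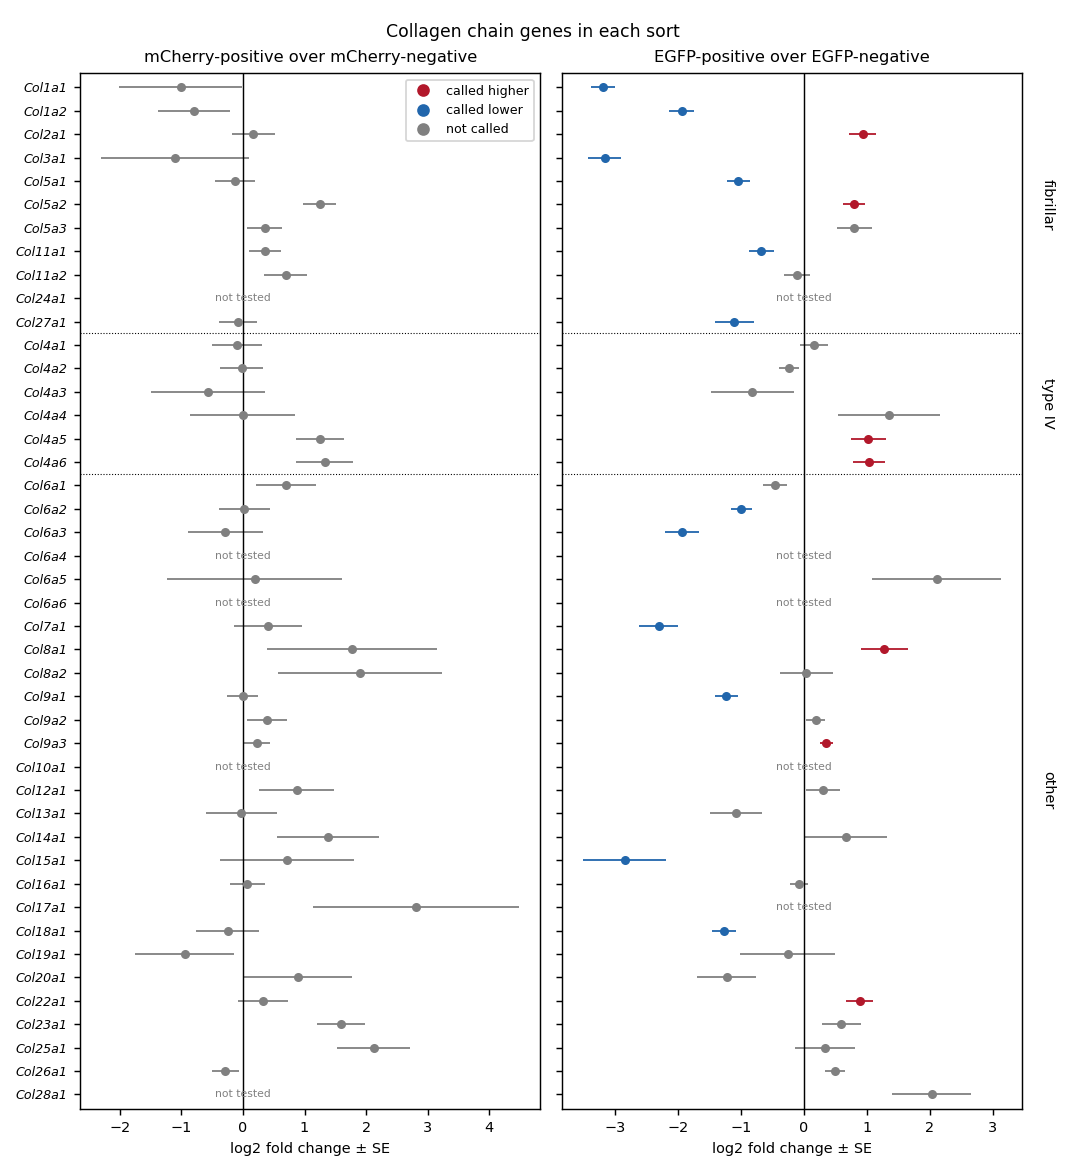
Log2 fold change of each collagen chain gene (rows) in mCherry-positive over mCherry-negative cells (left) and in EGFP-positive over EGFP-negative cells (right), with 1 standard error on each side, coloured by the call. The mCherry panel has no called gene and wider bars, and in the EGFP panel the blue points reach -3.20 for Col1a1.

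In the mCherry sort no collagen gene was called. Of 39 tested, 0 were higher and 0 lower by edgeR's quasi-likelihood test, against 1.20% of all 17369 genes. An unadjusted p under 0.05 was found for 5 of the 39, against 3233 of all 17369 genes. On the same counts DESeq2 called 5 higher and 0 lower, and limma-voom called 1 higher and 0 lower. Over all genes DESeq2 called 885 higher and 591 lower, and limma-voom 100 and 146. The spread between replicates was wider here, with a common coefficient of variation of 0.382 against 0.189 in the EGFP sort. The median log2 fold change of the 39 genes was 0.23, against 0.02 for all genes tested, and by class it was 0.05 for fibrillar, -0.01 for type IV and 0.39 for other chains.

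The fibrillar chains of types I and III were not called in this sort, and the size of their values moved with 1 library on each side. Col1a1 had 28.1, 0.285 and 25.8 CPM in mCherry-positive and 63.9, 18.7 and 25.5 CPM in mCherry-negative libraries (-1.01 ± 1.00, adjusted p 0.62). Col3a1 had 88.5, 0.0316 and 69.3 CPM in mCherry-positive and 201, 85.1 and 51.3 CPM in mCherry-negative libraries (-1.11 ± 1.20, adjusted p 0.66). Col1a2 was less extreme, at 38.03, 7.21 and 24.9 CPM in mCherry-positive and 72.5, 20.7 and 27.9 CPM in mCherry-negative libraries (-0.79 ± 0.59, adjusted p 0.50). For all 3 genes mCherry-positive replicate 2 was lowest and mCherry-negative replicate 1 highest. Without the positive library the log2 fold changes of Col1a1, Col3a1 and Col1a2 were -0.42, -0.51 and -0.35, and without the negative one -0.32, -0.41 and -0.08. The sign stayed negative in all 15 settings run, and limma-voom gave the largest values for Col1a1 and Col3a1, -2.51 and -4.05, without calling either.

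Col5a2 came nearest to a call, with 52.2, 43.1 and 64.1 CPM in mCherry-positive and 28.1, 14.4 and 23.6 CPM in mCherry-negative libraries. The groups did not overlap, and the log2 fold change was 1.25 ± 0.27 with an adjusted p of 0.060. DESeq2 gave it an adjusted p of 0.00049 and limma-voom one of 0.048, and without any 1 library edgeR's adjusted p was between 0.085 and 0.21. Its partner Col5a1 had a log2 fold change of -0.14 ± 0.32. Col4a5 had 78.8, 37.0 and 77.2 CPM in mCherry-positive and 43.3, 18.8 and 17.9 CPM in mCherry-negative libraries (1.25 ± 0.39, adjusted p 0.14), and Col4a6 had 23.4, 9.02 and 30.1 CPM in mCherry-positive and 12.1, 4.91 and 7.51 CPM in mCherry-negative libraries (1.33 ± 0.46, adjusted p 0.17). For both genes mCherry-positive replicate 2 lay inside the range of the negative libraries. Both were called higher in some other setting, but in no fit with 1 library left out. Over all genes such fits called 0 to 125 higher and 0 to 87 lower, against 94 and 114 with none left out. No gene at all was called without mCherry-positive replicate 3, mCherry-negative replicate 1 or mCherry-negative replicate 2. A missing call in these fits therefore says little about a single gene. Col4a1 and Col4a2 had log2 fold changes of -0.10 ± 0.40 and -0.02 ± 0.35.

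Among the transmembrane chains, Col23a1 had 33.6, 31.3 and 50.9 CPM in mCherry-positive and 20.8, 9.79 and 7.01 CPM in mCherry-negative libraries (1.59 ± 0.39, adjusted p 0.080). It too was called higher in some other setting, but in no fit with 1 library left out. The counts over all genes given above for such fits apply here too. Col25a1, a neuronal collagen needed in mice for motor axons to enter muscle, had 3.15, 6.04 and 8.15 CPM in mCherry-positive and 1.38, 0.552 and 1.98 CPM in mCherry-negative libraries (2.12 ± 0.59, adjusted p 0.11), and is named here after its values were seen. With Col5a2 these were the 3 tested genes whose mCherry-positive libraries all lay above the negative ones, and none lay wholly below. Of all genes tested, 25.3% did not overlap in this sort. In the EGFP sort 23 of 39 did not overlap, 8 above and 15 below, where the share over all genes was 37.9%, with 2193 above and 4002 below. Of the remaining genes above 10 CPM on average over the 12 libraries, Col9a3, Col16a1, Col11a1, Col18a1, Col9a1, Col26a1, Col6a1, Col6a2, Col5a3, Col9a2, Col11a2 and Col2a1 had log2 fold changes between -0.28 (Col26a1) and 0.70 (Col6a1), with adjusted p of 0.32 or more. The scarcer genes ranged between -0.95 for Col19a1 and 2.82 for Col17a1, and Col28a1 was not tested in this sort.

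The mCherry effect minus the EGFP effect was then put to a test of its own, fitted on all 12 libraries and so reusing the libraries of both comparisons. By edgeR's quasi-likelihood test 0 of 40 collagen genes were called in either direction, against 1.44% of all 18063 genes (160 higher and 101 lower, or 235 and 60 with library totals only). An unadjusted p under 0.05 was found for 10 of the 40, against 2736 of all 18063 genes. DESeq2 called 3 higher and 1 lower, and limma-voom called none. Over all genes DESeq2 called 584 higher and 310 lower, and limma-voom 99 and 96. The median difference was 0.83 on the log2 scale, against -0.03 for all genes. Col7a1 and Col9a1 came nearest, with differences of 2.68 ± 0.66 (adjusted p 0.063) and 1.21 ± 0.31 (adjusted p 0.072). Col1a1 differed by 2.16 and Col3a1 by 2.04, neither called, so the fall of both in the EGFP sort was not shown to be absent from the mCherry sort. By limma-voom these differences were 0.67 and -0.87, so the sign for Col3a1 depended on the tool. Without mCherry-positive replicate 2, Col1a1 was the 1 collagen gene called higher in this test, and without mCherry-positive or mCherry-negative replicate 1 it was Col7a1.

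Across the sorts, mCherry-positive cells were set against EGFP-positive cells and mCherry-negative against EGFP-negative cells in the same fit. Sort, virus and RNA input (0.8 ng for HCRT cells and 2 ng for MCH cells) change together here and cannot be told apart. Between the positive groups mCherry-positive cells had 4 of 40 collagen genes higher and 4 lower, together 8, against 17.6% of all genes called (9.90% higher and 7.67% lower). With library totals only, the split of all genes was 2188 and 698 instead of 1788 and 1385, and 2 collagen genes were lower. Col23a1 had 33.6, 31.3 and 50.9 CPM in mCherry-positive and 12.9, 5.76 and 6.34 CPM in EGFP-positive libraries (2.07 ± 0.39, adjusted p 0.0028). Col27a1 (1.45 ± 0.31), Col25a1 (1.69 ± 0.54) and Col7a1 (1.70 ± 0.47) were also higher. Col2a1 (-1.26 ± 0.28), Col22a1 (-1.20 ± 0.31), Col26a1 (-0.69 ± 0.17) and Col9a3 (-0.52 ± 0.17) were lower. With 1 library left out, the count was 2 to 6 higher and 2 to 5 lower, at its lowest for the higher genes without mCherry-positive replicate 3 or EGFP-positive replicate 2, and for the lower genes without mCherry-positive replicate 2 or any 1 EGFP-positive library. Col23a1, Col27a1 and Col2a1 were called in all 12 of these fits.

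Between the negative groups, mCherry-negative cells had 0 of 40 collagen genes higher and 3 lower (edgeR's quasi-likelihood test), against 3.96% of all genes called (2.67% higher and 1.29% lower). An unadjusted p under 0.05 was found for 12 of the 40, against 3027 of all 18063 genes. Col11a2 had 5.37, 6.41 and 7.28 CPM in mCherry-negative and 19.7, 17.1 and 15.2 CPM in EGFP-negative libraries (-1.44 ± 0.27, adjusted p 0.0084). Col5a1 (-1.05 ± 0.25, adjusted p 0.032) and Col9a1 (-0.98 ± 0.22, adjusted p 0.020) were the others. DESeq2 called 0 higher and 6 lower, and limma-voom 0 higher and 3 lower. Over all genes DESeq2 called 800 higher and 629 lower, and limma-voom 451 and 254. The median log2 fold change was -0.52 over the 40 genes and 0.01 over all genes. With 1 library left out 0 to 5 were called lower, 0 without EGFP-negative replicate 1, 1 without EGFP-negative replicate 2 or mCherry-negative replicate 2, and 5 without mCherry-positive replicate 2 or mCherry-negative replicate 1.

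Ratios of partner chains, per length and within a library, show unequal change of the 2 genes. Col1a1 to Col1a2, partners in type I collagen, stood at 0.415 to 0.607 in EGFP-positive and 1.01 to 1.40 in EGFP-negative libraries, and at 0.0356 to 0.937 in mCherry-positive and 0.795 to 0.826 in mCherry-negative libraries. Col5a1 to Col5a2 was 0.136 to 0.264 in EGFP-positive and 0.625 to 0.887 in EGFP-negative libraries, and 0.127 to 0.1998 in mCherry-positive and 0.290 to 0.523 in mCherry-negative libraries, so positive cells of both sorts had the lower ratio in every library. The pair Col4a1 and Col4a2 had a ratio of 1.796 to 2.87 over all 12 libraries, and Col4a5 to Col4a6 one of 2.43 to 4.41. Across the pairs the ratio moved: Col4a5 to Col4a1 was 0.758 to 0.847 in mCherry-positive and 0.299 to 0.375 in mCherry-negative libraries, and 0.557 to 0.689 in EGFP-positive and 0.306 to 0.461 in EGFP-negative libraries. In each sort every positive library lay above every negative one, mCherry-positive replicate 2 included. These ratios were chosen with the values in view and carry no test.

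Summed over the class, fibrillar chains made up 20.5% to 23.1% of all collagen CPM in EGFP-positive and 41.0% to 42.3% in EGFP-negative libraries, and 24.2% to 33.0% in mCherry-positive and 31.9% to 40.2% in mCherry-negative libraries. Type IV chains made up 23.0% to 31.99% in EGFP-positive and 17.7% to 18.3% in EGFP-negative libraries, and 19.2% to 26.0% in mCherry-positive and 16.3% to 22.8% in mCherry-negative libraries. The groups of the EGFP sort did not overlap in either share, and those of the mCherry sort overlapped in both. In CPM the fibrillar sums of the EGFP sort did not overlap (153 to 230 in EGFP-positive and 483 to 534 in EGFP-negative libraries), whereas the type IV sums did (172 to 327 in EGFP-positive and 209 to 231 in EGFP-negative libraries). All collagen genes together had 749 to 1021 CPM in EGFP-positive and 1169 to 1262 CPM in EGFP-negative libraries, and 619 to 1128 CPM in mCherry-positive and 579 to 1142 CPM in mCherry-negative libraries.

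**Figure D4:**
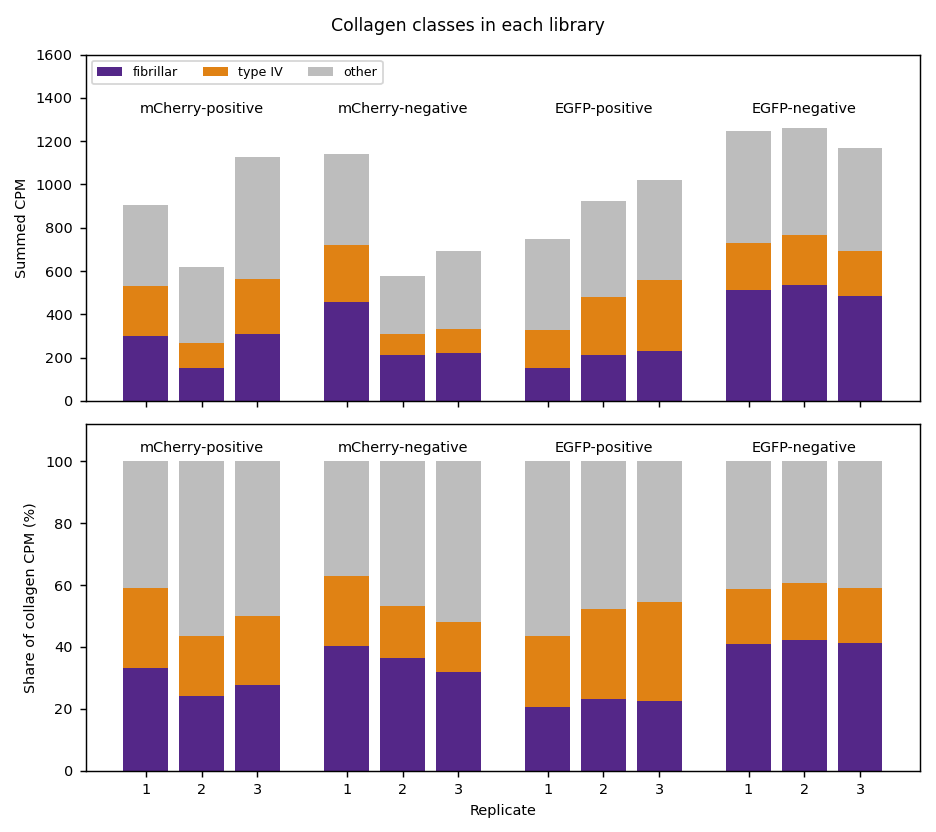
Summed CPM of the collagen classes (top) and the share of each class in collagen CPM in percent (bottom), 1 stacked bar per library, with 3 replicates per group. The fibrillar part of the bars is 20.5% to 23.1% in the EGFP-positive libraries and 41.0% to 42.3% in the EGFP-negative ones, and the mCherry groups overlap.

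Genes that make, cut and read collagen were followed in 7 lists, of which 69 of 70 genes were in the files. In the EGFP sort, where 8.99% of all genes were called higher and 7.07% lower, 4 of 8 tested genes for folding and export were higher and none lower. Serpinh1, the collagen chaperone HSP47, had 644, 619 and 571 CPM in EGFP-positive and 375, 349 and 348 CPM in EGFP-negative libraries (0.88 ± 0.09, adjusted p 0.00048), and the prolyl isomerase gene Fkbp10 (0.71 ± 0.15), the collagen galactosyltransferase gene Colgalt2 (0.88 ± 0.21) and the coat protein gene Sec24d (0.74 ± 0.18) rose with it. Of 13 genes for hydroxylation 1 was called, P4ha3, a prolyl hydroxylase subunit (1.20 ± 0.13, adjusted p 0.00066). So the chaperone was higher in the group where the type I and III chains were lower.

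Outside the cell, the genes called for procollagen processing were lower. Of 7 tested for procollagen processing, 0 were higher and 2 lower: Pcolce, which helps cut the C-terminal end, had 1.70, 1.75 and 2.39 CPM in EGFP-positive and 11.2, 10.5 and 12.6 CPM in EGFP-negative libraries (-2.43 ± 0.23, adjusted p 0.00037), and Adamts2, which cuts the N-terminal end, fell by 1.97 (adjusted p 0.010). Of 4 crosslinking genes, Lox was lower (-2.77 ± 0.48, adjusted p 0.0051) and Loxl3 higher (0.74 ± 0.15, adjusted p 0.012). Receptors had 4 of 9 higher and none lower: Adgrg1, a receptor for type III collagen in the developing cortex of mice (0.56 ± 0.11), Ddr1 (0.44 ± 0.09), Itga2 (1.39 ± 0.36) and Lair1 (0.91 ± 0.24). Among 8 genes for degradation and its inhibitors, Mmp14 (0.86 ± 0.10), Timp2 (0.82 ± 0.12) and Timp3 (0.75 ± 0.20) rose and Ctsk, a lysosomal collagenase, fell (-3.31 ± 0.56). Of 14 basement membrane partners of type IV, Lamb2 rose (1.17 ± 0.17) and the laminin genes Lama1 (-1.89 ± 0.36) and Lamc3 (-2.93 ± 0.43) fell. The calls of Fkbp10, Colgalt2, Sec24d, Adamts2, Loxl3, Adgrg1, Ddr1, Itga2, Lair1 and Timp3 were lost without some 1 library, with a largest adjusted p of 0.069, 0.092, 0.098, 0.060, 0.061, 0.052, 0.077, 0.11, 0.12 and 0.14.

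In the mCherry sort 0 genes of these 7 lists were called in either direction by edgeR's quasi-likelihood test, of 66 tested. An unadjusted p under 0.05 was found for 11 of the 66, against 3233 of all 17369 genes. DESeq2 called 7 higher and 0 lower, and limma-voom none, where over all genes they called 885 higher and 591 lower, and 100 and 146. The medians of the lists were between -0.07 for procollagen processing and 0.78 for crosslinking, against 0.02 for all genes tested. Serpinh1 had 313, 250 and 250 CPM in mCherry-positive and 325, 311 and 235 CPM in mCherry-negative libraries (-0.12 ± 0.20). The mCherry effect minus the EGFP effect was -1.02 ± 0.22 on the log2 scale (adjusted p 0.034). This was the 1 call among 66 tested genes of the 7 lists in the test of the difference, against 1.44% of all genes. With 1 library left out this call held in 2 of 12 fits, those without mCherry-positive replicate 1 or mCherry-negative replicate 3, and the difference was -1.17 to -0.94 with a largest adjusted p of 0.12.

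Markers of cells that could carry these chains were followed beside them. Of 12 leptomeningeal fibroblast markers, 10 were tested in the EGFP sort, and 1 was higher and 6 lower, against 16.1% of all genes called in either direction. Their median log2 fold change was -2.37, against -0.01 for all genes tested. Dcn, the fibril-binding proteoglycan decorin, had 1.88, 1.67 and 2.43 CPM in EGFP-positive and 31.3, 26.6 and 32.3 CPM in EGFP-negative libraries (-3.79 ± 0.21, adjusted p 3.3e-05). Lum (-4.10), Aldh1a2 (-2.92), Slc6a13 (-3.24), Tbx18 (-3.15) and Foxc1 (-1.83), named after their values were seen, fell and Ogn rose (2.57). The summed level of the list was 134 to 156 CPM in EGFP-positive and 167 to 183 CPM in EGFP-negative libraries, since its most abundant members, Fbln1 and Islr, were not called (0.27 ± 0.13 and 0.30 ± 0.13). Their part in the fall of the fibrillar chains was not tested.

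In the mCherry sort the same list had 56.9 to 89.9 CPM in mCherry-positive and 111 to 165 CPM in mCherry-negative libraries, and 0 of 11 tested were called by edgeR's quasi-likelihood test. There 1 had an unadjusted p under 0.05, against 3233 of all 17369 genes. DESeq2 called 1 lower and limma-voom none. Over all genes DESeq2 called 885 higher and 591 lower, and limma-voom 100 and 146. In mCherry-positive replicate 2, the library with 1 read of Col3a1, 7 of the 12 markers had a read, Dcn stood at 0.190 CPM, and Lum, Slc6a13 and the crosslinking gene Lox were at 0. Pituitary markers had 2333 CPM in this library and 5545 in mCherry-positive replicate 3, against 9.07 in mCherry-positive replicate 1 and 7.48 to 222 in mCherry-negative libraries. Microglial markers had 747 CPM in mCherry-positive replicate 1 and 32.8 to 159 in the other mCherry libraries. How far these differences in composition bear on the collagen values of this sort was not tested.

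Other cell types were followed in the same way. Over all genes tested in the EGFP sort, 8.99% were called higher and 7.07% lower. Of the mural markers, which label pericytes and smooth muscle, 6 of 10 were tested in the EGFP sort, and Pdgfrb (0.83 ± 0.19), Acta2 (1.55 ± 0.21) and Tagln (0.82 ± 0.16) rose while Vtn fell (-1.91 ± 0.19). The summed mural level was 96.4 to 141 CPM in EGFP-positive and 90.8 to 99.3 CPM in EGFP-negative libraries. The endothelial sum was 83.8 to 115 CPM in EGFP-positive and 40.5 to 45.7 CPM in EGFP-negative libraries, most of it Slco1c1, a thyroid hormone transporter that astrocytes also express. Of the 10 endothelial markers 4 were tested in the EGFP sort, and 1 was higher and 0 lower. Their median log2 fold change lay above that of all genes tested. A read was found for 5 of the 10 in each EGFP-positive library and for 6 to 8 in EGFP-negative ones. Among the defining endothelial genes, Cdh5, Cldn5, Tek and Tie1 were at 0 in EGFP-positive libraries but for Cldn5 at 0.032 CPM in replicate 3. In EGFP-negative libraries these genes had at most 0.43 CPM. The other members were not followed singly. Of the 8 chondrocyte markers 4 were tested in the EGFP sort, and Cnmd (2.13 ± 0.14) and Hapln1 (1.24 ± 0.25) rose and Matn1 fell (-2.15 ± 0.64). The summed level of the list was 149 to 185 CPM in EGFP-positive and 57.5 to 66.0 CPM in EGFP-negative libraries. Of 7 astrocyte markers, 6 were higher and 1 lower. Oligodendrocyte lineage markers had 0 higher and 9 lower of 10 tested, with sums of 1847 to 1957 CPM in EGFP-positive and 5569 to 5877 CPM in EGFP-negative libraries. Microglial markers had 1 higher and 7 lower of 8, at 8.36 to 10.5 CPM in EGFP-positive and 42.1 to 57.8 CPM in EGFP-negative libraries. Pituitary markers had 0 higher and 5 lower of 8, at 37.5 to 65.2 CPM in EGFP-positive and 364 to 470 CPM in EGFP-negative libraries. Neuronal markers had 0 higher and 4 lower of 7 (743 to 1002 CPM in EGFP-positive and 1172 to 1236 CPM in EGFP-negative libraries), and epithelial markers 0 higher and 2 lower of 5 (4.46 to 4.79 CPM in EGFP-positive and 12.3 to 17.1 CPM in EGFP-negative libraries). The part of each of these cell types in the collagen values was not tested.

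**Figure D5:**
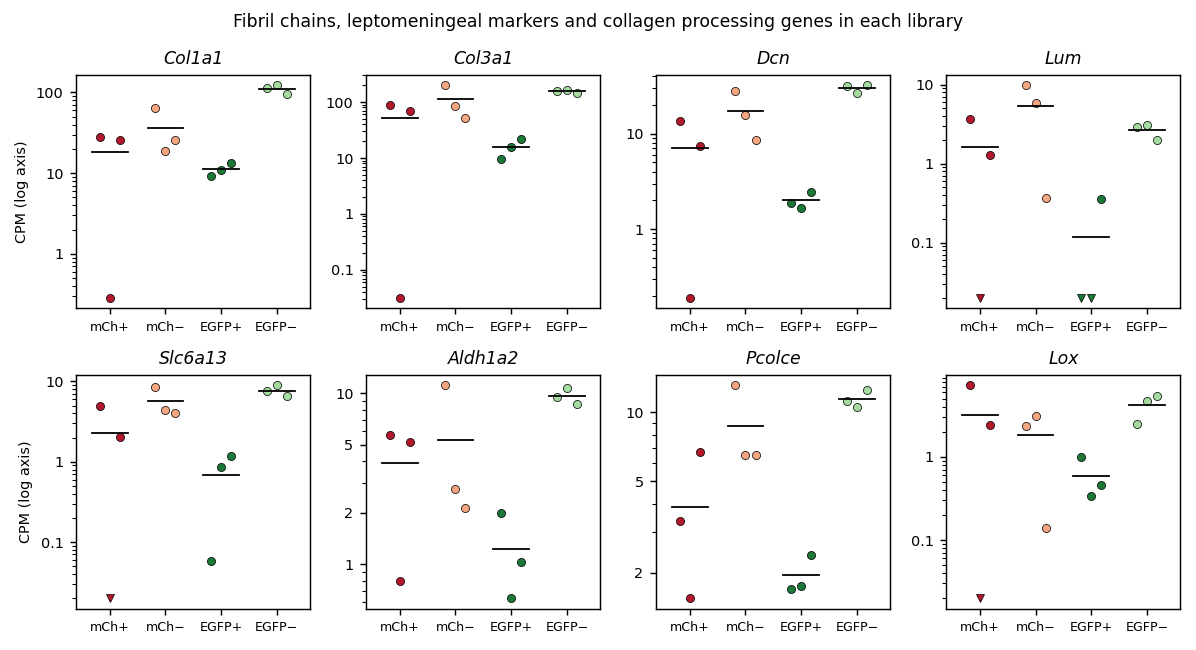
CPM on a log axis of Col1a1 and Col3a1 beside the leptomeningeal markers Dcn, Lum, Slc6a13 and Aldh1a2 and the processing genes Pcolce and Lox, for mCherry-positive (mCh+), mCherry-negative (mCh−), EGFP-positive (EGFP+) and EGFP-negative (EGFP−) libraries, with dots for libraries, bars for group means and triangles at the lower edge for libraries at 0. In each panel the EGFP-positive dots lie below the EGFP-negative ones, and mCherry-positive replicate 2 is the lowest mCherry library.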

How the data were processed

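Per the submitters' processing notes, reads were handled with cutadapt 1.8, STAR 2.5.2b and HTSeq 0.6.1 on GRCm38. The authors deposited 1 table of whole-number read counts per Ensembl gene for each of the 12 libraries. Settings, strand use and annotation release are not given in the sources used here. Rows naming no gene (5 per table, 31.4% to 38.2% of the counted total) were left out. Symbols came from GENCODE M21 (48349 of 48709 identifiers). The libraries were made with SMART-Seq v4 (11 PCR cycles) and Nextera XT from 150 pg of cDNA, without molecular identifiers.

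Counts were tested in R 4.3.3 with edgeR 4.0.16 (TMM factors, filterByExpr with a minimum count of 10 and total of 15, quasi-likelihood F test, Benjamini-Hochberg adjustment over all genes tested, called under 0.05). Each sort was fitted on its own 6 libraries, and the difference and the comparisons across sorts on all 12. Alternatives were DESeq2 1.42.0, limma-voom (limma 3.58.1), other scalings and filters, a replicate block, a fit of all 12 libraries and leaving out each library. CPM is the count over reads in genes, and levels per length divide it by the longest coding transcript. The code was tested on simulated data. Replicates differed by more than counting noise (chi-square per degree of freedom 6.20 to 88.5). The members, lists, ratios and motifs were chosen with earlier results of these data known. Named were genes called or averaging at least 10 CPM, up to 4 called genes per pathway list, and the most abundant or defining markers; other markers were named after their values were seen.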

Additional observations from a re-analysis of the deposited data

Results flagged for a closer look

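The effects of the mCherry and EGFP sorts were compared in the 12-library test of the difference by edgeR's quasi-likelihood test. It called 1.44% of all genes. Of 66 tested genes of the collagen pathway 1 was called, near that share, with 1 of 11 tested leptomeningeal and 2 of 9 tested mural markers. Marker lists not taken up in this section had calls too. There 5 of 10 oligodendrocyte lineage, 3 of 8 microglial, 2 of 5 epithelial and 1 of 9 pituitary markers were higher. Of 7 astrocyte markers 1 was lower. For Serpinh1, the collagen chaperone, the mCherry effect minus the EGFP effect was -1.02 on the log2 scale (adjusted p 0.034), with log2 fold changes of -0.12 in the mCherry sort and 0.88 in the EGFP sort. For Fbln1, a matrix glycoprotein of the leptomeningeal list, it was -1.07 (adjusted p 0.023), with -0.76 and 0.27. For the smooth muscle genes Acta2 and Tagln it was -2.10 (adjusted p 0.033) and -1.85 (adjusted p 0.012). Acta2 had log2 fold changes of -0.52 in the mCherry sort and 1.55 in the EGFP sort, and Tagln of -0.99 and 0.82. None of the 4 was called within the mCherry sort. With 1 library left out, the call held in 2 of 12 fits for Serpinh1 (-1.17 to -0.94, largest adjusted p 0.12), 8 for Fbln1 (-1.13 to -0.94, 0.092), 5 for Acta2 (-2.33 to -1.75, 0.12) and 10 for Tagln (-1.97 to -1.75, 0.062). It was lost for all 4 without EGFP-negative replicate 1 or EGFP-negative replicate 2. Serpinh1 also missed the threshold with upper-quartile factors (-0.92, adjusted p 0.053), and Acta2 by limma-voom (-1.98, adjusted p 0.051).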

How the results depend on the processing

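Counts of called collagen genes kept within 1.5 times of the reported ones in most settings. The exceptions, with unchanged filter and tool unless named, are these. In the mCherry sort, where 0 were called higher, there were 3 with no filter, 1 with a stricter filter, 5 by DESeq2, 1 by limma-voom and 4 in a fit of all 12 libraries. In the EGFP sort the fit of all 12 libraries called 0 higher and 4 lower. In the difference, 2 were higher with upper-quartile factors, 1 with library totals only, 2 with no filter and 3 by DESeq2, which also called 1 lower. In mCherry-positive against EGFP-positive cells library totals only left 2 lower. In mCherry-negative against EGFP-negative cells no filter gave 1 higher and 5 lower, and DESeq2 6 lower. The causes were not tested.

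Leaving out 1 library gave, for the counts of collagen genes higher and lower, 0 to 0 and 0 to 0 in the mCherry sort, 0 to 10 and 9 to 13 in the EGFP sort, 0 to 1 and 0 to 0 in the difference, 2 to 6 and 2 to 5 between the positive groups and 0 to 1 and 0 to 5 between the negative groups. Over all genes the sorts gave 0 to 125 and 0 to 87 (mCherry) and 644 to 2884 and 480 to 2360 (EGFP). The difference gave 22 to 405 and 4 to 186. The positive groups gave 1027 to 2040 and 580 to 1935, and the negative groups 206 to 541 and 63 to 329. Log2 values whose sign changed ranged, in the mCherry sort, over Col2a1 -0.053 to 0.47, Col4a1 -0.34 to 0.54, Col4a2 -0.26 to 0.42, Col5a1 -0.29 to 0.21, Col6a2 -0.26 to 0.34, Col6a3 -0.76 to 0.31, Col7a1 -0.11 to 0.93, Col9a1 -0.15 to 0.14, Col15a1 -0.28 to 1.28, Col16a1 -0.23 to 0.27, Col18a1 -0.84 to 0.18, Col27a1 -0.18 to 0.11, Sec23a -0.097 to 0.19, Bmp1 -0.24 to 0.012, Loxl3 -0.25 to 0.27, Loxl1 -0.24 to 0.78, Adgrg1 -0.11 to 0.076, Itgb1 -0.029 to 0.27, Mmp14 -0.017 to 0.18. In the EGFP sort they ranged over Col4a1 -0.069 to 0.39, Col11a2 -0.33 to 0.020, Col16a1 -0.19 to 0.048, and in the difference over Col4a1 -0.54 to 0.35, Col4a2 -0.065 to 0.61, Col4a5 -0.059 to 0.71, Col4a6 -0.049 to 0.63, Col8a1 -1.05 to 2.26, Col9a2 -0.13 to 0.36, Col9a3 -0.34 to 0.0045, Col16a1 -0.18 to 0.30. None of these genes was called in the comparison concerned with no library left out. As given above, Col4a1 was called higher in the EGFP sort without EGFP-positive replicate 1.

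Other settings turned the sign of log2 values of uncalled genes. In the mCherry sort Col4a2 was 0.053 with upper-quartile factors, 0.00072 with library totals only and 0.017 by limma-voom. Col9a1 was 0.013 with DESeq2 size factors, 0.065 with upper-quartile factors, 0.012 with library totals only, 0.0090 with no filter, 0.0030 with a stricter filter and 0.013 by DESeq2, and Adgrg1 was 0.012, 0.066, 0.021, 0.0086, 0.0029 and 0.012 in the same settings. By limma-voom Col6a2 was -0.085 and Col15a1 -0.34. In the difference Col3a1 was -0.87 by limma-voom and Col9a3 0.016 with library totals only.

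The labels do not say whether same-numbered libraries belong together, and 3 libraries per group cannot settle it. Same-numbered libraries had deviation correlations of 0.19, -0.039 and 0.0998 in the mCherry sort and 0.29, 0.0096 and 0.18 in the EGFP sort. Differently numbered libraries had -0.25 to 0.22 in the mCherry sort and -0.29 to 0.14 in the EGFP sort. Not every library correlated best with its own number. With the replicate block 2 collagen genes were called higher in the mCherry sort, Col4a1 was 0.0052, Col4a2 0.022 and Col6a2 -0.059, and in the EGFP sort 6 were higher and 13 lower.

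Over all genes, 94 were called higher and 114 lower in the mCherry sort, against 485 and 293 with no filter, 885 and 591 by DESeq2 and 883 and 829 in the fit of all 12 libraries, 153 higher with a stricter filter and 188 higher with the block. In the EGFP sort 1468 and 1154 became 458 and 343 in the fit of all 12 libraries. In the difference 160 and 101 became 483 and 192 with no filter and 584 and 310 by DESeq2, with 99 higher by limma-voom and 67 and 60 lower with upper-quartile factors and library totals only. Between the negative groups 482 and 233 became 800 and 629 by DESeq2. Library totals only moved the share of calls that were higher to 39.8% in the EGFP sort, 79.7% in the difference and 75.8% between the positive groups, against 56.0%, 61.3% and 56.4%, and the medians of all genes there to -0.12, 0.13 and 0.13. Upper-quartile factors gave 56.3% in the mCherry sort, 77.7% in the difference and 56.1% between the negative groups, against 45.2%, 61.3% and 67.4%. Depth limited the scarcest genes: 3 reads, the limit that a count of 0 allows, were 0.0912 to 0.184 CPM, for counting error only.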
